A study of Mus musculus with 250 samples.

Results

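The response of the liver to a breast tumor was set against the response of the blood cells of the same mouse. For each of 24 tumor-bearing mice with its matched control mouse, counted below as 1 mouse, the log2 change of every gene in liver, tumor-bearing minus matched control, had the log2 change of that gene in blood cells subtracted from it. This liver-minus-blood difference is positive where the liver changed further upward than the blood cells. It used 96 of the 250 arrays of the study and covered 18193 genes. Of 25 pairs of a tumor-bearing and a control mouse per tissue, 24 were linked between liver and blood, with 4 arrays a pair, by the numbers in their sample labels, which share the first 6 digits and, where several pairs share those, 2 further digits. The labels do not say outright that shared digits mark 1 animal.

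The study profiled whole tissues of female FVB mice on Affymetrix Mouse Genome 430 2.0 arrays. Tumor-bearing mice carried both MMTV-rtTA and TetO-NeuNT, a pair of transgenes by which doxycycline switches on an activated rat form of the receptor gene Erbb2 (Her2/Neu) where the mammary tumor virus promoter is active, chiefly in mammary epithelium. Controls were littermates with TetO-NeuNT alone, matched to a tumor-bearing mouse by age and cage. From the age of 8 weeks every mouse, controls included, had water with 5% sucrose and doxycycline at 2 mg/mL, and tissues of both mice of a pair were taken when the tumor reached 1 cm. The 4 groups of 24 arrays each were livers of tumor-bearing mice, livers of control mice, blood cells of tumor-bearing mice and blood cells of control mice, where blood cells means blood without its plasma.

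The liver makes most plasma proteins, and during inflammation its hepatocytes answer interleukin 6 and interleukin 1 by secreting acute phase proteins. Neutrophils are made in bone marrow, where precursors fill primary granules first and secondary and tertiary granules later, and mature cells leave for the blood. RNA of whole liver also holds the RNA of its macrophages, endothelium, matrix-forming cells and the blood inside it, and subtracting the blood response of the same animal separates changes larger in one tissue than in the other.

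Each tissue had a high level of 1 marker of its own. Albumin mRNA (Alb) reached 28675 to 33925 (median 32834) intensity units in livers of tumor-bearing mice and 23669 to 33885 (median 32125) in control livers. In blood cells Alb gave 26.1 to 8367 (median 70) in tumor-bearing mice and 26.4 to 12912 (median 92.6) in controls, so some blood arrays were high. The platelet chemokine mRNA Pf4, chosen after its values were seen, reached 6628 to 16483 (median 10750) in blood cells of tumor-bearing mice and 1156 to 19325 (median 11156) in control blood cells. Of these arrays, 3 stood apart from their tissue: the control livers of the mice numbered 2 and 7 had a median correlation with the other liver arrays of 0.336 and 0.826, and the control blood of mouse 9 one of 0.670 with the other blood arrays. All other liver arrays had at least 0.962 and all other blood arrays at least 0.879. Results below use 24 mice, and the main counts and some genes are also given over the 21 mice without numbers 2, 7 and 9, a choice made after seeing the data. Intensities of liver and of blood cells may be on different scales and are read within each tissue. The ratios of end to start control probes for Gapdh and actin, a measure of RNA integrity, passed none of 6 permutation tests (lowest adjusted p = 0.26). Those tests compare means, and single arrays stood out. In control livers the log2 ratio reached 0.94 for Gapdh (median -0.13) and 1.86 for actin (median 0.67). In blood cells that of Gapdh reached 1.47 in controls and 1.23 in tumor-bearing mice (median 0.23 in each).

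The probe set of the mouse Erbb2 gene was near the low end of the scale in every group. It gave 28.1 to 46.3 (median 32.7) in livers of tumor-bearing mice, 27.3 to 60 (median 34.6) in control livers, 11.3 to 35.2 (median 23.1) in blood cells of tumor-bearing mice and 15.1 to 36.5 (median 21.3) in control blood cells. The groups overlapped in both tissues, and the mean difference was -0.12 ± 0.10 (SE, n = 24 mice, permutation p = 0.257).

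Of the 18193 genes, 2078 (11.4%) had a liver-minus-blood difference at an adjusted p under 0.05 by limma, the rule for every call below. It was above 0 for 1170 genes (6.43%) and below 0 for 908 (4.99%). Over the 21 mice the counts were 1492 (8.2%) and 1933 (10.6%). In the same 24 mice, 1664 genes (9.15%) changed in liver, of which 1292 rose (7.1%) and 372 fell (2.04%), and 1527 rose in blood cells (8.39%) and 735 fell (4.04%). After quantile normalization within each tissue the blood counts were 1460 and 1159. Over 21 mice 2186 genes rose in liver (12.0%) and 2907 fell (16%), against 1428 (7.85%) and 953 (5.24%) in blood cells. The downward side of the liver response was thus much wider without the arrays that stood apart. The 3 fits share arrays, so the counts by pattern that follow are descriptions.

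Most genes with a difference moved in 1 tissue. Of the 1170 genes above 0, 611 rose in liver with no call in blood, 269 fell in blood with no call in liver, 53 rose in liver and fell in blood, 10 rose in both, 4 fell in both, and 223 were called in neither tissue. Of the 908 genes below 0, 556 rose in blood with no call in liver, 161 fell in liver with no call in blood, 121 rose in both, 23 fell in liver and rose in blood, and 47 were called in neither tissue. A further 180 genes rose and 20 fell in both tissues with no call for the difference. Level matters to how these groups read: 54.7% of the 674 genes above 0 that rose in liver, and 78.3% of the 161 that fell in liver alone, lay below the median gene in blood cells, against 12.9% of the 700 genes below 0 that rose in blood.

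**Figure D1:**
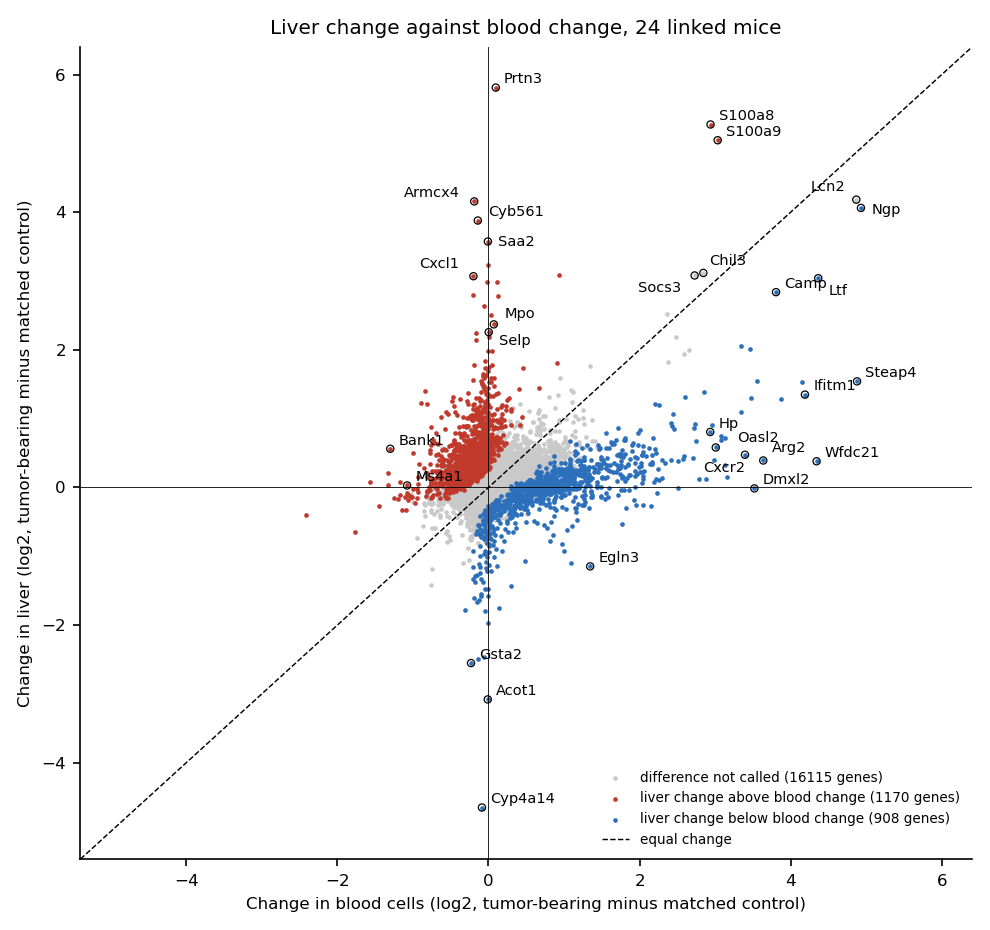
Each point is 1 of 18193 genes, with its mean log2 change in blood cells across and in liver upward, tumor-bearing minus matched control, over 24 linked mice. Red points have a difference called above 0 (1170 genes), blue points below 0 (908 genes), and grey points no call; Prtn3, Saa2 and Cyp4a14 lie on the vertical axis, Wfdc21 and Dmxl2 near the horizontal axis, and Lcn2, Ngp and Socs3 moved in both tissues.

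The largest difference of all genes belonged to Prtn3, which encodes proteinase 3, a serine protease of the primary granules of neutrophils. Prtn3 gave 425 to 4427 (median 2545) in livers of tumor-bearing mice, against 24.6 to 61 (median 39) in control livers. In blood cells it gave 26.8 to 326 (median 43.2) in tumor-bearing mice and 20.6 to 179 (median 41.7) in controls. Every liver of a tumor-bearing mouse lay above every control liver, while the blood groups overlapped. For Prtn3 over 21 mice, the highest blood sample of a tumor-bearing mouse gave 110.1 and the highest control blood sample 113. The difference was 5.71 ± 0.20 (SE, n = 24, limma adjusted p = 3.69e-18), above 0 in 24 of 24 mice, made of 5.81 ± 0.11 in liver and 0.10 ± 0.14 in blood (adjusted p = 0.761). In whole tissue, more cells of a type and more RNA per cell cannot be told apart.

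Other primary granule genes, Mpo (myeloperoxidase), Elane (neutrophil elastase) and Ctsg (cathepsin G), were chosen after their values were seen, and they moved the same way. Mpo gave 39.7 to 1045 (median 104) in livers of tumor-bearing mice and 23.2 to 43.5 (median 29.1) in control livers, against 11.3 to 25.7 (median 16.4) and 11.2 to 27.6 (median 15) in blood cells of the same 2 groups. Its difference was 2.30 ± 0.29 (adjusted p = 1.17e-06), above 0 in 24 mice. Elane had a difference of 1.66 ± 0.25 (adjusted p = 1.93e-05) and Ctsg of 1.51 ± 0.27 (adjusted p = 2.72e-04). None of the 4 genes was called in blood cells, where their mean changes lay between -0.05 and 0.10.

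The primary granule genes differed in how evenly they rose. The liver change of Prtn3 lay between 4.11 and 6.51 over the 24 mice (SD 0.57), whereas that of Mpo ran from 0.30 to 5.25 (SD 1.40). Across mice, the liver changes of Mpo, Elane and Ctsg followed each other closely (Pearson r 0.94 to 0.96, Spearman rho 0.89 to 0.96, adjusted permutation p = 2.44e-05 for each of the 3 pairs, where the unadjusted p of 1e-05 is the smallest the permutations can give). Prtn3 followed Mpo less closely (r = 0.54, rho = 0.55, adjusted permutation p = 0.0118, and r = 0.45 without the 2 mice farthest from the median Prtn3 change). Mpo also followed Camp in liver, a secondary granule gene (r = 0.95, rho = 0.93, adjusted permutation p = 2.44e-05), but was not shown to follow the acute phase gene Saa2 (r = 0.15, adjusted permutation p = 0.511). Mpo did follow another acute phase gene, Orm2, less closely (r = 0.46, rho = 0.55, adjusted permutation p = 0.0311 for r). Prtn3, Elane and Ctsg likewise followed Orm2 (r 0.43 to 0.50, adjusted permutation p 0.0168 to 0.0427), but none was shown to follow Saa2 (r 0.08 to 0.24). The values for Saa2 depended on the mice used. Over 21 mice r with Saa2 was 0.38 for Prtn3, 0.36 for Mpo, 0.46 for Elane and 0.36 for Ctsg, and this was not tested. With Orm2 it was 0.58, 0.61, 0.68 and 0.63 in the same order. Without the 2 mice farthest from the median change of the first gene, r was 0.91 to 0.95 for the first 3 pairs and 0.93 for Mpo and Camp. It was 0.20 for Mpo and Saa2 and 0.57 for Mpo and Orm2. All were among 22 pairs of genes computed together, and the pairs printed were chosen after the values were seen. For Mpo and Elane r was 0.96 in the earlier and 0.95 in the later run of sample numbers. It was 0.64 and 0.34 for Prtn3 and Mpo, and 0.71 and 0.34 for Mpo and Orm2.

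The promoters of 3 of these genes are shown because they share a run of letters. Each is 250 bases before to 50 after the start of the gene, from RefSeq on GRCm38.p6, with GAGGAAGT, a sequence bound by the ETS factor PU.1, in capitals. Prtn3 (chr10:79879417-79879716, plus strand) and Elane (chr10:79886062-79886361, plus strand) lie close together on chromosome 10, and Mpo lies on chromosome 11 (chr11:87793534-87793833, plus strand).
Prtn3: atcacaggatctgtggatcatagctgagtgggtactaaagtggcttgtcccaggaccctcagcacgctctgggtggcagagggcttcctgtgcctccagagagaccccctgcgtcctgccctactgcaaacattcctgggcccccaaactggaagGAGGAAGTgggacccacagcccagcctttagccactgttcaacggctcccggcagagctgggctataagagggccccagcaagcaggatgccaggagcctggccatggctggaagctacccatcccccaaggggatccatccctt
Elane: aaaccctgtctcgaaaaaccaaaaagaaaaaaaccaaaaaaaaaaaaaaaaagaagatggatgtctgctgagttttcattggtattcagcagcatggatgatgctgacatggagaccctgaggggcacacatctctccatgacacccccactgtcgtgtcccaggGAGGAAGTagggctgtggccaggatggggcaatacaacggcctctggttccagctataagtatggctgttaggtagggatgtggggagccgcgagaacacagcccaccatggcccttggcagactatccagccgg
Mpo: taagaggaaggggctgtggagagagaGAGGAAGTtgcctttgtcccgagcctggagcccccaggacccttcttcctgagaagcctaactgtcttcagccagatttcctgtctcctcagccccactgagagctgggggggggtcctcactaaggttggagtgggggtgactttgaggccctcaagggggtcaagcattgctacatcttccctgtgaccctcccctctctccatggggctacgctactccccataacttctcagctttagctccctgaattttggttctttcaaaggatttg
On either strand, GAGGAAGT stood in 3.20% of the 32851 promoters in the table. It was not particular to primary granule genes: of the 21 neutrophil list members with a promoter in the table, 5 held it, the others being S100a8 and Mmp8, whereas Ctsg did not. Among genes with 1 promoter each, it stood in 2.15% of the 511 that rose in liver with a difference above 0, in 5.59% of the 572 that rose in blood with a difference below 0, and in 2.93% of the 14452 tested.

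The neutrophil list of granule and surface genes as a whole did not lie on 1 side. Of 22 measured members, 6 had a difference above 0 and 11 below, against 6.43% and 4.99% of all genes. The median difference was -0.72, against 0.01 over all genes. In liver 18 members rose, with a median change of 1.60, and in blood cells 16 rose, with a median of 2.89. The summed intensity of the list was 6542 to 52007 (median 22092) in livers of tumor-bearing mice and 1009 to 2115 (median 1552) in control livers, against 20660 to 103353 (median 44485) in blood cells of tumor-bearing mice and 1479 to 13455 (median 6301) in control blood cells, where the low end was 2688 over 21 mice.

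S100a8 and S100a9, the subunits of calprotectin, rose in both tissues and further in liver. S100a8 gave 401 to 11384 (median 3166) in livers of tumor-bearing mice and 19 to 228 (median 86.8) in control livers, and 6788 to 22432 (median 13639) in blood cells of tumor-bearing mice against 59.5 to 4985 (median 1994) in control blood cells. The groups did not overlap in either tissue. For S100a8 over 21 mice, the lowest control blood sample gave 771. Blood values of S100a8 in tumor-bearing mice lie toward the top of the scale (highest value 36357). Whether this limited its blood change was not tested. The change was 5.27 ± 0.24 in liver and 2.94 ± 0.27 in blood cells, a difference of 2.33 ± 0.27 (adjusted p = 2.66e-07), above 0 in 23 of 24 mice. For S100a9 the difference was 2.01 ± 0.21 (adjusted p = 5.89e-08).

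Secondary granule genes rose steeply in both tissues, somewhat further in blood. Ngp, the neutrophilic granule protein, gave 137 to 7656 (median 893) in livers of tumor-bearing mice and 35.6 to 157 (median 61.9) in control livers, against 590.3 to 11294 (median 2702) in blood cells of tumor-bearing mice and 19.9 to 602 (median 73.9) in control blood cells. Its change was 4.06 ± 0.27 in liver and 4.93 ± 0.33 in blood cells, and the difference -0.87 ± 0.23 (adjusted p = 0.00991). For Ngp over 21 mice, the lowest control blood sample gave 35.6. Camp, the cathelicidin, and Ltf, lactoferrin, both chosen after their values were seen, had differences of -0.97 ± 0.21 and -1.32 ± 0.21 (adjusted p = 0.00211 and 3.76e-05). Lcn2, an iron-siderophore binding protein made by neutrophils and by hepatocytes, rose by 4.18 in liver and 4.87 in blood cells, and its difference was not called (-0.69 ± 0.41, adjusted p = 0.342, 95% interval -1.53 to 0.16). Control blood cells gave 16.3 to 2637 for Lcn2, the highest being mouse 16, whose difference was 5.19. The median difference of Lcn2 over mice was -0.99. Chil3, a chitinase-like protein, had a difference of 0.27 ± 0.20 (adjusted p = 0.476), with changes of 3.12 and 2.84.

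Genes of late neutrophil stages and of the cell surface rose much further in blood. Cxcr2, the receptor for neutrophil chemokines, gave 58.7 to 142 (median 82.8) in livers of tumor-bearing mice and 38.9 to 75.7 (median 54.6) in control livers, against 878 to 4830 (median 2090) in blood cells of tumor-bearing mice and 119 to 559 (median 251) in control blood cells. Blood groups did not overlap, and liver groups did. Its difference was -2.43 ± 0.16 (adjusted p = 1.44e-11), below 0 in 24 of 24 mice. Stfa2l1, a stefin, had -2.61 ± 0.17, the gelatinase and collagenase genes Mmp9 and Mmp8 had -2.39 ± 0.19 and -2.58 ± 0.22, and Cd177, a surface protein chosen after its values were seen, had -2.0 ± 0.20. Their adjusted p values lay between 1.39e-11 and 1.81e-08, and each of the 4 was below 0 in 24 of 24 mice. Control livers gave 9.68 to 74.3 for Stfa2l1, 36.7 to 71.6 for Mmp9, 14.7 to 72.6 for Mmp8 and 11.4 to 52.7 for Cd177. These values lie toward the low end of the scale, where 9.68 is the floor. Whether this limited the liver changes was not tested.

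**Figure D2:**
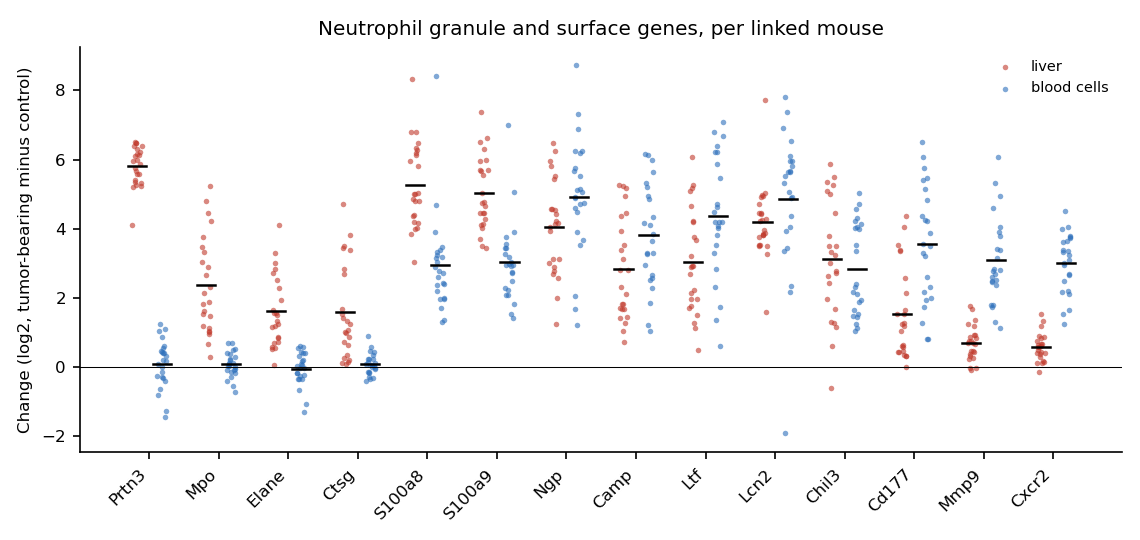
Log2 change, tumor-bearing minus matched control, of 14 neutrophil genes in liver (red, left of each pair) and in blood cells (blue), with 1 point per linked mouse and a bar at the mean of 24. Prtn3, Mpo, Elane and Ctsg rose in liver alone, S100a8 and S100a9 further in liver, and Cd177, Mmp9 and Cxcr2 further in blood cells.

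Mice with a larger rise of several neutrophil genes in blood also had a larger rise in liver. Over 24 mice, the liver and blood changes of Ltf correlated with r = 0.80 and rho = 0.86, those of Cd177 with r = 0.80 and rho = 0.73, and those of Chil3 with r = 0.79 and rho = 0.88 (adjusted permutation p between 7.33e-05 and 0.00033 for these 6 values). Without the 2 mice farthest from the median blood change, r was 0.82, 0.76 and 0.75. Within the earlier run of sample numbers (10 mice) r was 0.95, 0.90 and 0.83, and within the later run (14 mice) 0.75, 0.74 and 0.74. Of the 22 members, 10 passed by Pearson and 12 by Spearman. The primary granule genes Prtn3 and Elane had r = -0.26 and -0.37, neither of which passed (adjusted permutation p = 0.331 and 0.129). Neither gene was called in blood cells, where Elane gave 16.7 to 37.7 in tumor-bearing mice and 20.1 to 61.4 in controls. Without a called blood change to follow, these 2 tests can show little about a link between the tissues. Lcn2 had r = 0.12 (adjusted permutation p = 0.599). Over all genes, the liver and blood profiles of linked mice correlated with a median of 0.095, against 0.0308 for mice not linked, and without mice 2, 7 and 9 with -0.00567, against -0.00563.

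**Figure D3:**
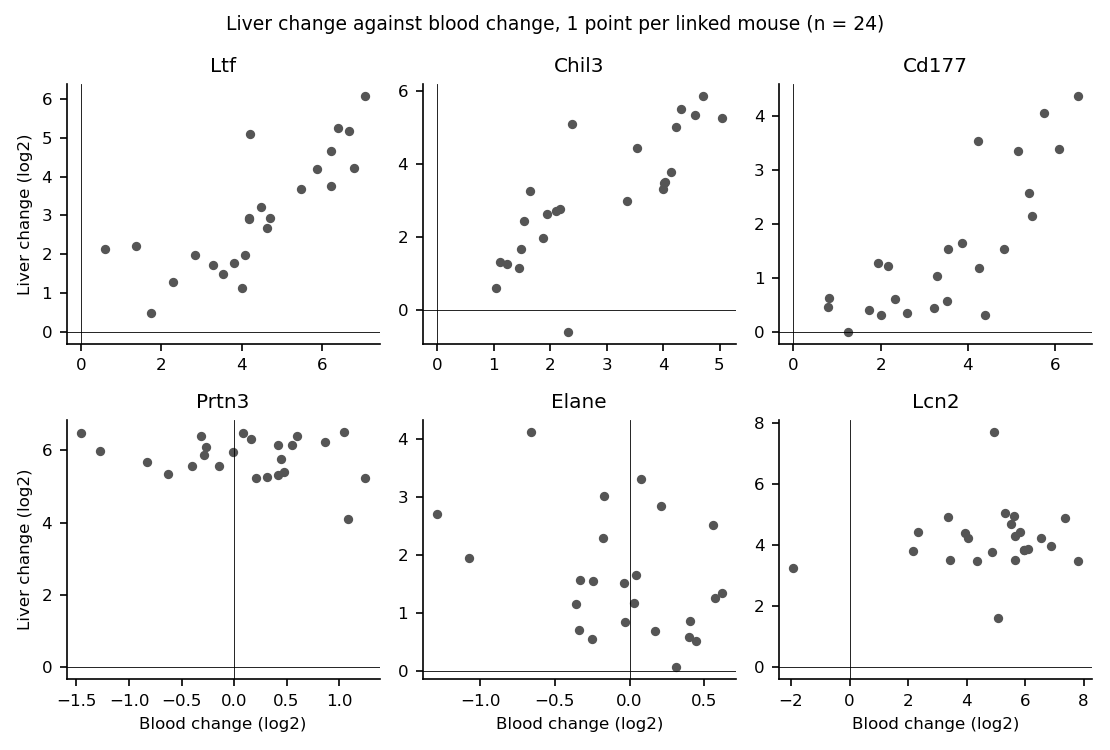
Log2 change in liver against log2 change in blood cells for 6 genes, with 1 point for each of 24 linked mice. Ltf, Chil3 and Cd177 rise together in both tissues, whereas the liver change of Prtn3 lies between 4.11 and 6.51 at every blood change.

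Acute phase proteins, which hepatocytes secrete into plasma in inflammation, rose chiefly in liver. Of 26 measured members of that list 13 had a difference above 0 and 3 below, against 6.43% and 4.99% of all genes. The median was 0.95. In liver 19 rose and 1 fell, and in blood cells 6 rose. Saa2, a serum amyloid A apolipoprotein, gave 1866 to 18177 (median 9346) in livers of tumor-bearing mice and 147 to 4298 (median 774) in control livers, and 9.68 to 40.5 (median 14) against 11.2 to 42.6 (median 13.8) in blood cells of tumor-bearing and control mice. Its difference was 3.58 ± 0.27 (adjusted p = 1.39e-10), above 0 in 23 of 24 mice. For Saa2 over 21 mice, the lowest control liver gave 249, the highest control liver 2093 and the highest control blood sample 17.1. Saa1, its close paralog, gave 2.87 ± 0.24 (adjusted p = 6.98e-10), and the array may not tell the 2 genes apart fully. The orosomucoid gene Orm2 gave 2867 to 17524 (median 7968) in livers of tumor-bearing mice and 379 to 2752 (median 976) in control livers, with blood values at or near the floor of 9.68, and a difference of 3.24 ± 0.21 (adjusted p = 9.55e-12). For Orm2 over 21 mice, the lowest control liver gave 615. Orm3 and the metallothionein Mt2, both chosen after their values were seen, had 1.94 ± 0.23 and 1.69 ± 0.30 (adjusted p = 3.93e-07 and 2.50e-04). Lbp, the lipopolysaccharide binding protein, rose in both tissues, with a difference of 1.03 ± 0.21 (0.87 over 21 mice).

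The promoters of the 2 serum amyloid genes are shown as a pair of near copies, in which capitals mark letters that match TTNNGNAA, the pattern of C/EBP factors, on either strand. Saa1 lies at chr7:46742931-46743230, minus strand, and Saa2 at chr7:46751583-46751882, plus strand, on GRCm38.p6.
Saa1: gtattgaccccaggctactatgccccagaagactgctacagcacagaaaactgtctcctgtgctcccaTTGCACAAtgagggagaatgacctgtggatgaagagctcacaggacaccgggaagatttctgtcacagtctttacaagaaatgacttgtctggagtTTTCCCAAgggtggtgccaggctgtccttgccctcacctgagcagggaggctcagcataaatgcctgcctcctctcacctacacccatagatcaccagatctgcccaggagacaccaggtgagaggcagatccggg
Saa2: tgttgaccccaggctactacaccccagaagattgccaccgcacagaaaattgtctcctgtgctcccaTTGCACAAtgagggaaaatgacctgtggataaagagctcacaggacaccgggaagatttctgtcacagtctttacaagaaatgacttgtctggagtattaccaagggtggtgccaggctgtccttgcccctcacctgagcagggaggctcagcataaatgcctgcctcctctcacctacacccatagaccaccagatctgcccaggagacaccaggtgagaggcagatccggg
Saa1 held 2 matches and Saa2 held 1. The pattern is frequent: it stood in 40.7% of all promoters in the table. Among genes with 1 promoter each, it stood in 34.0% of the 14452 tested and in 32.5% of the 511 that rose in liver with a difference above 0. Of the 22 acute phase members with a promoter, 15 held it.

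The 3 acute phase members with a difference below 0 rose in liver as well, but further in blood cells. Steap4, a metalloreductase of iron and copper, gave 2336 to 5898 (median 4057) in livers of tumor-bearing mice and 67.3 to 2200 (median 1687) in control livers, against 267 to 3415 (median 881) in blood cells of tumor-bearing mice and 21.3 to 70.4 (median 31.2) in control blood cells. Neither tissue's groups overlapped, and the difference was -3.34 ± 0.29 (adjusted p = 1.74e-09). For Steap4 over 21 mice, the lowest control liver gave 1291 and the highest blood sample of a tumor-bearing mouse 2136. Haptoglobin mRNA (Hp), whose product binds free haemoglobin, had a difference of -2.13 ± 0.32 (adjusted p = 2.09e-05), with changes of 0.81 ± 0.20 in liver and 2.94 ± 0.24 in blood cells. Hp medians were 25182 in livers of tumor-bearing mice and 16614 in control livers, against 1395 and 191 in blood cells of the same 2 groups. Liver values of Hp lie toward the top of the scale (highest value 36357), and whether this limited its liver change was not tested. Il1rn, the interleukin 1 receptor antagonist, chosen after its values were seen, had -0.67 ± 0.16 (adjusted p = 0.00365).

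Receptors that carry the acute phase signal rose in liver alone, while several of their targets rose in both tissues. Osmr, the oncostatin M receptor, gave 175 to 746 (median 429) in livers of tumor-bearing mice and 28.1 to 154 (median 109) in control livers, and was at or near the floor in blood cells, with a difference of 2.0 ± 0.14 (adjusted p = 5.46e-11). For Osmr over 21 mice, the lowest control liver gave 77.9. Il1r1, the interleukin 1 receptor, had 1.54 ± 0.17 (adjusted p = 1.09e-07), and Il6st, the shared gp130 subunit, 1.46 ± 0.28 (adjusted p = 5.06e-04; 1.29 over 21 mice). Socs3, the feedback inhibitor of this pathway, rose by 3.08 in liver and 2.73 in blood cells with no call for the difference (0.35 ± 0.24, adjusted p = 0.427). Stat3, the transcription factor, chosen after its values were seen, likewise had 0.13 ± 0.26 (adjusted p = 0.818), and its liver groups did not overlap. The factor Cebpd rose further in blood, with -1.48 ± 0.21 (adjusted p = 1.32e-05). Of the 16 members of the interleukin 6 list, 3 had a difference above 0, against 6.43% of all genes. Below 0 was 1 member, near the 4.99% of all genes.

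Other large liver-led rises came from outside the immune lists. Armcx4, an armadillo repeat gene, gave 212 to 1177 (median 752) in livers of tumor-bearing mice and 26.9 to 55.9 (median 35.7) in control livers, against 9.68 to 12.2 (median 9.93) and 9.68 to 38.5 (median 10.5) in blood cells of the same 2 groups, and its difference was 4.34 ± 0.16 (adjusted p = 2.48e-17). For Armcx4 over 21 mice, the highest control blood sample gave 19.2. Cyb561, a cytochrome b561, had 4.02 ± 0.23, the potassium channel gene Kcnt2 3.0 ± 0.20 and the magnesium transporter gene Slc41a2 2.99 ± 0.20 (2.80 over 21 mice). Dnajc12, a heat shock protein co-chaperone, had 2.69 ± 0.20, Dnaic1, a dynein intermediate chain of cilia, 2.66 ± 0.22, and Crybb3, a crystallin, 2.47 ± 0.16. All 7 were above 0 in 24 of 24 mice, with adjusted p between 2.48e-17 and 4.90e-10. No roles of these genes in liver were measured here.

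Chemokine and adhesion genes in liver were led by Cxcl1, a neutrophil attractant that binds Cxcr2. Cxcl1 gave 1233 to 10597 (median 6297) in livers of tumor-bearing mice and 175 to 1239 (median 802) in control livers, and 34.5 to 595 (median 77.2) against 51.9 to 712 (median 93.3) in blood cells of tumor-bearing and control mice. All 24 differences were above 0, with a mean of 3.27 ± 0.22 (adjusted p = 1.55e-11). For Cxcl1 over 21 mice, the lowest control liver gave 356. Without those mice the liver groups of Cxcl1 did not overlap. Selp, P-selectin, which catches leukocytes on endothelium and platelets, had 2.25 ± 0.25, and the alarmin Il33 1.39 ± 0.13 (adjusted p = 1.97e-07 and 3.79e-09). Il1b, interleukin 1 beta, went the other way, with -1.86 ± 0.27 (adjusted p = 1.43e-05). Of the 28 members of the chemokine and adhesion list, 8 had a difference above 0, against 6.43% of all genes. Below 0 were 2 members, near the 4.99% of all genes.

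Complement genes leaned to the liver. C8a, a chain of the membrane attack complex, gave 6582 to 15200 (median 11496) in livers of tumor-bearing mice and 47.2 to 5074 (median 2584) in control livers, with a difference of 2.41 ± 0.27 (adjusted p = 1.78e-07). For C8a over 21 mice, the lowest control liver gave 1831. C8b had 1.19 ± 0.24 and C6 0.68 ± 0.15, both called. The receptor gene C5ar1, carried by neutrophils, lay on the other side with -1.51 ± 0.21 (adjusted p = 7.38e-06). Of 26 complement and coagulation members, 9 had a difference above 0, against 6.43% of all genes. Below 0 was 1 member, near the 4.99% of all genes, and the list median was 0.69.

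Matrix, endothelial and dividing-cell genes also rose in liver more often than in blood cells. Over all genes 6.43% had a difference above 0 and 4.99% below. Of 27 matrix members 14 had a difference above 0 and none below, with a median of 0.53. In liver 15 of them rose, against 1 in blood cells. Col5a2 gave 102 to 499.9 (median 238) in livers of tumor-bearing mice and 45.2 to 149.5 (median 71.1) in control livers, with a difference of 1.78 ± 0.15 (adjusted p = 1.59e-09). The matrix genes Lum, Col3a1 and Postn had 1.75 ± 0.22, 1.67 ± 0.24 and 1.10 ± 0.15, or 1.40, 1.29 and 1.02 over 21 mice. Of 19 endothelial members 8 were above 0 and none below, with Stab2, a scavenger receptor of sinusoids, at 1.11 ± 0.21 (0.78 over 21 mice) and Plvap at 1.0 ± 0.20. Summed over the endothelial list, intensity was 7231 to 15907 (median 13394) in livers of tumor-bearing mice and 1157 to 9928 (median 8948) in control livers, where the low end was 7378 over 21 mice. Of 26 cell cycle members 13 were above 0 and none below, 16 rose in liver, and in blood cells 4 rose and 1 fell. Examples were the replication helicase genes Mcm6 (1.64 ± 0.26) and Mcm5 (1.37 ± 0.26).

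**Figure D4:**
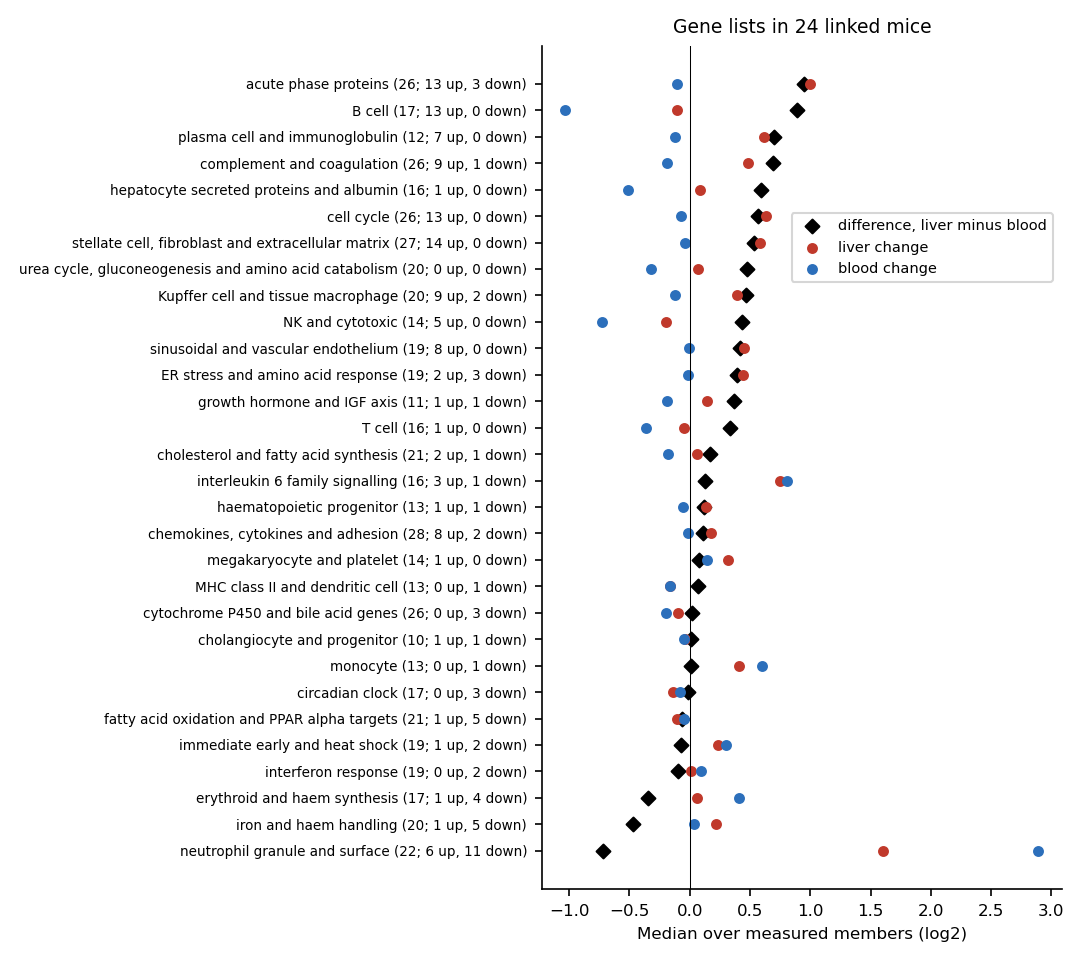
Median log2 change over the measured members of 30 gene lists in 24 linked mice: the liver-minus-blood difference (black diamonds), the liver change (red) and the blood change (blue). Each label gives the members measured and how many had a difference called above 0 (up) or below 0 (down); the neutrophil list lies lowest at -0.72 and the acute phase list highest at 0.95, against 0.01 over all genes.

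Plasma cell and immunoglobulin genes leaned to the liver, with 7 of 12 members above 0 and none below. Over all genes 6.43% were above 0 and 4.99% below. Jchain, the joining chain of secreted antibody, had 0.98 ± 0.18 and Igha, the IgA heavy chain, 1.17 ± 0.26 (adjusted p = 3.80e-04 and 0.00245). Fkbp11, a secretory chaperone, had 1.36 ± 0.18, but -0.34 by the probe set left when those shared by several transcripts were dropped. The list's summed intensity was 9129 to 21175 (median 16414) in livers of tumor-bearing mice and 1259 to 14960 (median 12495) in control livers, where the low end was 10449 over 21 mice. In blood cells it was 1520 to 7870 (median 2415) in tumor-bearing mice and 984 to 10662 (median 3093) in controls.

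The largest differences below 0, liver falls aside, included rises in blood cells with smaller changes in liver. Arg2, a mitochondrial arginase, gave 21.7 to 53.2 (median 29.2) in livers of tumor-bearing mice and 15 to 199.6 (median 20.4) in control livers, against 180.5 to 1455 (median 521) in blood cells of tumor-bearing mice and 21.6 to 113 (median 42.8) in control blood cells, where the groups did not overlap. For Arg2 over 21 mice, the highest control liver gave 37 and the highest blood sample of a tumor-bearing mouse 899. The difference was -3.25 ± 0.25 (adjusted p = 1.68e-10), below 0 in 24 of 24 mice. Oasl2, an interferon-induced protein, gave 210.0 to 1420 (median 552) in blood cells of tumor-bearing mice and 31.3 to 305 (median 48.1) in control blood cells, with a difference of -2.92 ± 0.20. Of 19 interferon members 2 were below 0, the other being Gbp2 (-1.67 ± 0.30), and none above, against 4.99% and 6.43% of all genes. Over 21 mice 6 were below 0 and 2 above, against 10.6% and 8.2% of all genes. In blood cells 6 members rose and in liver 4. Oas1a, chosen after its values were seen, had -0.03 ± 0.18 (adjusted p = 0.945). Ifitm1, a membrane protein of the interferon-induced family, rose by 1.35 in liver and 4.19 in blood cells, a difference of -2.84 ± 0.21.

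Several of these genes were already abundant in control liver. Wfdc21, a small secreted protein of the whey acidic protein family, gave 10797 to 16479 (median 15137) in livers of tumor-bearing mice and 341 to 14104 (median 13440) in control livers, against 233 to 3786 (median 747) in blood cells of tumor-bearing mice and 16.2 to 284 (median 32.3) in control blood cells, and its difference was -3.96 ± 0.37 (adjusted p = 5.75e-09). For Wfdc21 over 21 mice, the lowest control liver gave 12101 and the highest blood sample of a tumor-bearing mouse 2461. Dmxl2, which takes part in acidifying vesicles, had -3.53 ± 0.24, with liver medians of 559 in tumor-bearing and 590.3 in control mice. Slc40a1, the iron exporter ferroportin, had -2.76 ± 0.35 (-2.85 over 21 mice), with liver medians of 6596 in tumor-bearing and 7194 in control mice. Gcnt2, a glycosyltransferase, had -3.0 ± 0.23. Others were not abundant in control liver. Prok2, a prokineticin, gave 11.4 to 37.7 there (19.4 at most over 21 mice) and had a difference of -2.80 ± 0.30. The myeloid transcription factor gene Spi1, which encodes PU.1, gave 93.5 to 225 there and had a difference of -1.50 ± 0.19 (adjusted p = 2.01e-06).

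In blood cells 8 of 17 measured erythroid members rose and none fell, against 8.39% and 4.04% of all genes. Their median change there was 0.41, and over 21 mice 6 rose. In liver 2 members rose and 1 fell. The red cell genes called for the difference moved in different ways. Epb42, a protein of the red cell membrane skeleton, rose in blood alone, with a difference of -1.41 ± 0.22 (adjusted p = 3.80e-05). Alas2, the erythroid enzyme that begins haem synthesis, rose in liver, with a difference of 0.61 ± 0.12 and blood medians of 24709 in tumor-bearing and 24734 in control mice. These blood values lie toward the top of the scale (highest value 36357), and whether this limited the blood change of Alas2 was not tested. Car1, a carbonic anhydrase, fell in liver, with -1.26 ± 0.14 (adjusted p = 1.90e-07). Of 17 erythroid members 1 was above 0, which is near the 6.43% of all genes called above 0, and 4 were below, against 4.99% of all genes. The summed intensity was 59701 to 76483 (median 65686) in blood cells of tumor-bearing mice and 13202 to 67405 (median 60395) in control blood cells, where the low end was 52739 over 21 mice. The probe set of Hba-a1 with 1 symbol was near the floor in all groups (0.17 ± 0.14, adjusted p = 0.532).

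Falls in liver alone included genes of fat and drug metabolism. Cyp4a14, a fatty acid hydroxylase induced by PPAR alpha, gave 27.7 to 592 (median 53) in livers of tumor-bearing mice and 267 to 6668 (median 2069) in control livers, and 16.8 to 31.3 (median 22.1) against 12.6 to 40.5 (median 22.1) in blood cells of tumor-bearing and control mice. It was the most negative difference of all genes, -4.56 ± 0.25 (adjusted p = 4.40e-13), below 0 in 24 of 24 mice. The acyl-CoA thioesterase genes Acot1 and Acot3 had -3.07 ± 0.20 and -2.35 ± 0.35, the glutathione transferase gene Gsta2 -2.32 ± 0.19, and the steroid enzyme gene Cyp17a1 -1.97 ± 0.23. Ugt2b37, a glucuronyl transferase, had -2.39 ± 0.31, and Cyp2g1 -1.75 ± 0.28. Their adjusted p values lay between 9.49e-12 and 4.79e-05.

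The lists behind these genes moved in a few members. Of 21 members of the fatty acid oxidation list 5 were below 0 and 1 above, with a median of -0.06. Of 26 cytochrome P450 and bile acid members 3 were below 0 and none above. Over all genes 4.99% were below 0 and 6.43% above, and the 1 member above is near that share. Cyp7b1, of the alternative bile acid pathway, had -1.11 ± 0.23. Over 21 mice, 8 members of each list were below 0, against 10.6% of all genes. Most members then fell in liver, 16 of 21 and 21 of 26, against 16% of all genes. Me1, malic enzyme, had -1.41 ± 0.30, the growth factor carrier Igfbp3 -1.24 ± 0.16, and Bmp6, a ligand that induces hepcidin, -1.12 ± 0.14 (adjusted p = 0.00162, 1.57e-06 and 9.57e-07). Hamp, hepcidin itself, chosen after its values were seen, fell by 1.18 in liver with no call for the difference (-0.44 ± 0.42, adjusted p = 0.602).

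**Figure D5:**
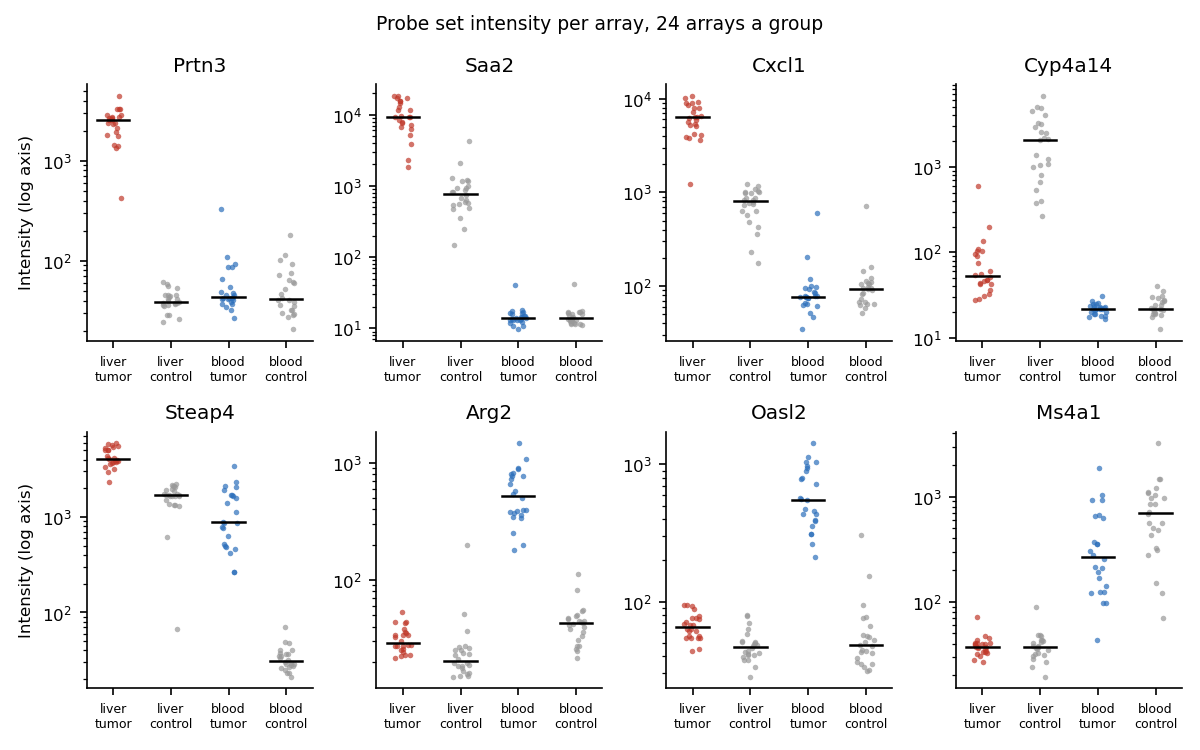
Probe set intensity on a log axis for 8 genes, with 1 point per array and a bar at the median of 24 arrays in livers of tumor-bearing mice, control livers, blood cells of tumor-bearing mice and control blood cells. Prtn3, Saa2 and Cxcl1 are high in livers of tumor-bearing mice, Cyp4a14 in control livers, Arg2 and Oasl2 in blood cells of tumor-bearing mice, Steap4 differs in both tissues, and Ms4a1 is lower in blood cells of tumor-bearing mice.

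Falls in blood cells alone included lymphocyte genes. Of 17 measured B cell members, 13 had a difference above 0 and none below, with a median of 0.89. Over all genes 6.43% were above 0 and 4.99% below. In blood cells 15 fell, with a median change of -1.03, and in liver 2 rose and 1 fell, with a median of -0.11. Ms4a1, which encodes CD20, gave 26.5 to 71.2 (median 37.3) in livers of tumor-bearing mice and 19.4 to 88.4 (median 37.3) in control livers, against 43 to 1854 (median 268) in blood cells of tumor-bearing mice and 69.3 to 3211 (median 699) in control blood cells. Blood groups overlapped widely, and the difference was 1.10 ± 0.27 (adjusted p = 0.00642). For Ms4a1 over 21 mice, the highest control liver gave 48.5, the lowest blood sample of a tumor-bearing mouse 97.6 and the lowest control blood sample 121. Cd22 and Fcer2a had 0.97 ± 0.19 and 1.10 ± 0.20. The list's summed intensity was 838 to 1150 (median 987) in livers of tumor-bearing mice and 719.9 to 1677 (median 969) in control livers, against 1262 to 11262 (median 2067) and 1326 to 16051 (median 4563) in blood cells of the same 2 groups.

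Fewer natural killer and T cell genes had a call. Of 14 natural killer and cytotoxic members, 5 were above 0 and 12 fell in blood cells, against 6.43% and 4.04% of all genes. The transcription factor gene Tbx21 was in both sets (0.80 ± 0.20, adjusted p = 0.00766). Over 21 mice 9 members were above 0, against 8.2% of all genes. The granule genes Gzma, Gzmb and Prf1 fell in both tissues with no call for the difference, although over 21 mice that of Prf1 was called (0.56). Of 16 T cell members 1 was above 0, Cd3e (0.36 ± 0.12, adjusted p = 0.0458), which is near the 6.43% of all genes called above 0, and over 21 mice 7 were. In blood cells 5 T cell members fell.

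Of 20 Kupffer cell and macrophage members 9 were above 0 and 2 below, against 6.43% and 4.99% of all genes. The scavenger receptor genes Cd163 and Msr1 rose in liver, with differences of 0.75 ± 0.14 and 1.02 ± 0.18. The complement genes C1qa, C1qb and C1qc, which macrophages make, were called in neither tissue but had differences of 1.17 ± 0.30, 1.32 ± 0.31 and 1.14 ± 0.30. Timd4 and Cd5l fell in blood cells, where Cd5l gave 25.9 to 912 (median 76.2) in tumor-bearing mice and 46.3 to 939.9 (median 163) in controls. For Cd5l over 21 mice, the lowest control liver gave 1565, the highest blood sample of a tumor-bearing mouse 533 and the highest control blood sample 531.

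Hepatocyte transcripts also varied among the blood arrays. The hepatocyte list of 16 measured members summed to 245914 to 331505 (median 325896) in livers of tumor-bearing mice and 126441 to 326710 (median 321263) in control livers, where the low end was 306837 over 21 mice. In blood cells it summed to 511 to 19323 (median 667) in tumor-bearing mice and 461 to 42877 (median 645) in controls. Its median difference was 0.59, made of 0.08 in liver and -0.51 in blood cells. Of its members 1 was above 0 (Fetub, 1.18 ± 0.34), near the 6.43% of all genes, and none was called in blood. Alb had a difference of 0.65 ± 0.71 (adjusted p = 0.653). The part of these transcripts in differences of other liver genes was not tested.

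A set of 76 genes moved in opposite directions in liver and blood cells, 53 with a difference above 0 and 23 below. Bank1, a B cell scaffold protein, gave 167 to 284 (median 242) in livers of tumor-bearing mice and 25.4 to 244 (median 193) in control livers, against 35.9 to 1283 (median 133) and 71.5 to 1595 (median 452) in blood cells of the same 2 groups. Its groups overlapped in both tissues, and the difference was 1.86 ± 0.26 (adjusted p = 8.58e-06). For Bank1 over 21 mice, the lowest control liver gave 71.3. Egln3, an oxygen-sensing prolyl hydroxylase, had a difference of -2.49 ± 0.23 (adjusted p = 7.41e-09), made of -1.15 ± 0.17 in liver and 1.35 ± 0.17 in blood cells. Without mice 2, 7 and 9, 298 genes fell in liver and rose in blood cells with a difference below 0, against 23 over 24 mice, and 22 genes were in both sets. Among 10092 probe sets without 1 gene symbol, tested apart, 516 (5.11%) had a called difference.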

How the data were processed

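Whole-tissue RNA was measured on Affymetrix Mouse Genome 430 2.0 arrays, 1 array per mouse and tissue. The deposited values are linear intensity per probe set, already summarised and normalized by the authors; the method is not given in the sources used here, and array medians differed between tissues (liver 42.2 to 61.7, blood cells 19.7 to 31.9). The number of arrays limits the precision.

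Values below the 5th percentile, 9.68, were set to it, and log2 was taken. Of 45101 probe sets, 34958 had 1 gene symbol, 932 several and 9211 none listed; symbols were updated through Entrez identifiers for 34754. The probe set with the highest mean stood for a gene, giving 18193. Each mouse's matched pair was subtracted within tissue, then blood from liver, and limma 3.58.1 in R 4.3.3 (one-sample eBayes, Benjamini-Hochberg adjustment) was applied. Errors are SE over mice unless marked SD. Permutation tests used 100000 resamples and are two-sided.

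The matched mice are littermates, and liver and blood cells are taken to come from 1 mouse. Paired arrays deviated together (median correlation 0.314 in liver and 0.170 in blood cells). Linked tissues correlated with a median of 0.095 (unlinked 0.0308) and, without mice 2, 7 and 9, of -0.00567 (unlinked -0.00563), and 0 of 24 mice correlated best with their own other tissue. On simulated data with 200 changed genes of 18193, 26% of log2 changes of 0.5 and 74% of changes of 1 were recovered, with 5.66% of calls false. The changed genes were drawn only from those above the median level, with independent normal noise of each gene's spread. Arrays that stand apart and correlation between genes were not simulated, so these rates may not carry over to the real data.

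Genes were named by rule: the 12 largest called differences each way with 1 sign in at least 20 mice, the 8 largest of each pattern, the 8 largest shared changes, up to 4 called members of each list by smallest p, and Erbb2, S100a8, S100a9, Lcn2, Saa1, Saa2, Hp, Cyp4a14, Alb, Hba-a1, Prtn3 and Ngp whatever their values. A further 30 genes were chosen after their values were seen. The members and lists were chosen with earlier results of these data known. The promoters come from a RefSeq table.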

Additional observations from a re-analysis of the deposited data

Results flagged for a closer look

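Among the genes named by rule, 17 had liver and blood changes called in opposite directions. With liver up and blood cells down, the liver-minus-blood differences (log2) were 2.11 for Igkv8-30, an immunoglobulin kappa variable gene, 2.02 for Ly6d, 1.86 for Bank1, 1.65 for Cdt1, a replication licensing factor, 1.5 for Mest, 1.49 for the transcription factor gene Ets1, 1.43 for Ighm, the IgM heavy chain, and 1.37 for Gem. With liver down and blood cells up, they were -2.49 for Egln3, -2.29 for the cytokine gene Il15, -2.20 for the lipase gene Lipg, -2.12 for Ssbp2, -1.91 for Id1, -1.79 for G0s2, an inhibitor of fat breakdown, -1.73 for Aldh3a2, -1.65 for Mgst3 and -1.10 for the oxysterol enzyme gene Cyp39a1. Outside the named genes, 516 of 10092 probe sets without 1 gene symbol (5.11%) had a called difference, 216 above 0 and 300 below.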

How the results depend on the processing

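Of the 204 named genes, 187 to 203 kept direction and side of the threshold under the alternatives that kept all mice and genes, as did 194 of the 200 left without probe sets marked _x_at or _s_at and 97 of the 99 above the median level in both tissues. With fewer mice, 69 did so in the earlier run of sample numbers (131 lost the call and 4 reversed), 188 in the later run, 190 without outlying arrays and 197 without mice 2, 7 and 9. Counts moved by over 1.5 times in several settings, and the cause was not tested unless fewer genes or mice entered. In the order liver-minus-blood above and below 0, liver higher and lower, the counts were 537, 492, 585 and 80 among genes above the median level in both tissues, 2493, 2015, 2894 and 3147 without mice that hold any outlying array, and 39, 70, 74 and 9 in the earlier run of sample numbers (10 mice). Without mice 2, 7 and 9 (an alternative chosen after seeing the data), 1933 were below 0, 2186 higher in liver and 2907 lower. The later run gave 2064 higher and 1967 lower in liver. Blood gave 353 higher and 9 lower in the earlier run, and lower counts of 1159 with quantile normalization, 467 with median centring, 431 among bright genes and 1816 without outlying arrays. Ignoring the pairing (no replicate block, 100 arrays) gave 484 lower in blood.

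By pattern, liver rises with a difference above 0 numbered 245 (bright genes), 1387 (no outlying arrays) and 37 (earlier run). Blood falls without a liver rise numbered 457 (quantile), 167 (median), 177 (bright), 922 (no outlying arrays), 1 (earlier run) and 435 (later run). Blood rises below 0 numbered 447, 1054, 1053 without mice 2, 7 and 9, and 64 (bright, no outlying arrays and earlier run for the others). Liver falls without a blood rise numbered 26, 802, 778 and 5 in the same order, and 445 in the later run. Shared rises with no call numbered 11 in the earlier run.

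Reversed differences were -0.14 for Chil3, -0.0821 for Fam169b, -0.22 for Alb and 0.0683 for Oas1a in the earlier run; -0.0506 for Atp11a, -0.19 for Gbp2b and -0.14 for Stat3 in the later run; -0.15 for Socs3, -0.34 for Fkbp11 and -0.41 for Slc4a1 without _x_at and _s_at sets. The mean of probe sets gave 0.23 for Fabp5, -0.19 for Vipr1 and -0.35 for Slc4a1, and quantile normalization -0.12 for Fam169b and 0.0105 for Oas1a. Without outlying arrays Vipr1 had -0.0637 and Oas1a 0.0914, and without mice 2, 7 and 9 they had -0.0991 and 0.00218.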
